A study of Mus musculus with 8 samples.

Results

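The serum amyloid A family was followed on 8 two-colour expression arrays of mouse mammary tumours. Every non-control probe whose gene name in the scanner files is Saa1, Saa2, Saa3 or Saa4 was taken, which gave 6 probes for 4 genes, out of 41174 probes and 28786 gene names on the array. Saa1 and Saa4 had 2 probes each, and Saa2 and Saa3 had 1 each. All tumours arose in virgin female mice carrying MMTV-NIC, a transgene that places activated Neu (ErbB2) and Cre recombinase on a single transcript driven by the MMTV promoter, which is active in mammary epithelium. In the Stat3flx/flx/NIC group Cre can delete Stat3, and each of its 5 samples is 1 tumour. The Stat3wt/wt/NIC group carries the same transgene with intact Stat3, and each of its 3 samples is a pool of 5 tumours. Genotype therefore cannot be told apart from pooling in any comparison of the groups, the tests included. Tumours were collected 6 weeks after they could first be felt. Tumour RNA was read in the red channel and a universal mouse reference RNA in the green channel of every array, so each level is a log2 ratio of tumour over reference. Cre acts where the MMTV promoter is active, so other cells of a floxed tumour can keep Stat3. The labels do not say which animals the tumours of a pool came from, so the tests reflect variation among the arrayed samples, which may be partly technical.

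Serum amyloid A proteins are small apolipoproteins of high-density lipoprotein. Saa1 and Saa2 encode the acute phase proteins that the liver secretes in large amounts during inflammation, and Saa3 is an inducible form made mainly outside the liver, in cells such as macrophages, adipocytes and epithelia. Saa4 is expressed constitutively and responds little to inflammation. Induction of the acute phase members runs through interleukin-6, interleukin-1 and tumour necrosis factor, which act on STAT3, C/EBP and NF-kB factors. The comparison asks what the loss of Stat3 in ErbB2-driven tumours leaves of the family's transcripts.

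The probes are 60-base oligonucleotides, and their sequences were not compared with the members' transcripts. They are shown 5' to 3' as the scanner files give them, with positions on mouse build mm7, and capitals mark the longest stretch shared by the brightest Saa1 probe and the Saa3 probe.
Saa1 probe A_52_P318673, chr7:42916901-42916960: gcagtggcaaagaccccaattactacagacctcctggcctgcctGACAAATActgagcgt
Saa1 probe A_51_P361650, chr7:42916998-42917470: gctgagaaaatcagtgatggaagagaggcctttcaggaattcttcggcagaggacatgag
Saa3 probe A_51_P337308, chr7:42888862-42888921: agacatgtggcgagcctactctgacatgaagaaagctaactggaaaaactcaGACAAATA
Saa2 probe A_51_P166886, chr7:42930366-42930425, first 30 bases: cttcctatctaggaacactgaagatgctct
The Saa1 probe A_51_P361650 covers 473 bases of genome with 60 bases of sequence, so its target is interrupted in the genome. The stretch shared by the brightest Saa1 probe and the Saa3 probe is 8 bases long, and the Saa1 probe A_51_P361650 and the Saa2 probe share no more than 5 bases in a row. The accession lists in the files nevertheless give, under the Saa3 probe, accessions that also stand under the Saa1 probes, and the reference gene table lists Saa1 and Saa2 as synonyms of each other. Values are therefore given probe by probe. The 2 Saa4 probes lie between Saa3 and Saa1, at chr7:42905591-42905650 and chr7:42904493-42904552. Exons and untranslated regions were not assigned on this build.

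The Saa2 probe and the Saa1 probe A_51_P361650 were low in every floxed tumour and high in every wild-type pool. The log2 ratio of Saa2 was -0.44, -0.51, -0.13, -0.57 and -0.62 in floxed tumours 1 to 5, and 1.61, 1.93 and 5.03 in wild-type pools 1 to 3. The groups did not overlap, and the lowest pool stood 1.73 log2 units above the highest floxed tumour. Floxed tumours averaged -0.45 ± 0.20 (SD, n = 5), while pools averaged 2.86 ± 1.89 (SD, n = 3). The floxed minus wild-type difference was -3.31 (SE 0.67, 95% interval -4.82 to -1.80), a 9.93-fold lower mean ratio in floxed tumours. It did not pass the threshold of 0.05 after Benjamini-Hochberg adjustment over all genes in limma (adjusted p = 0.754). The exact permutation test over all 56 ways to label 5 of the 8 samples, two-sided, gave p = 0.0179, the smallest it can give for 5 against 3.

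Leaving out pool 3, whose value set most of the wild-type spread, gave a Saa2 difference of -2.22 with a limma adjusted p of 0.0575. The tumour channel of this probe was well above background in floxed tumours 1, 2 and 3 and in all 3 pools, and not in floxed tumours 4 and 5. Its tumour signal lay between 111 and 142 scanner units in floxed tumours and was 789, 1304 and 61207 in the pools. In the tumour channel alone, quantile-normalized between arrays, pools 1 and 2 together stood 5-fold above the floxed mean and pool 3 stood 322-fold above it. These folds and the 9.93-fold ratio rest on a floxed mean in which 2 of 5 values were not well above background.

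The Saa1 probe A_51_P361650 gave log2 ratios of -0.34, -0.54, -0.25, -0.55 and -0.49 in the floxed tumours and 1.68, 1.83 and 5.17 in the pools. Its difference was -3.33 (SE 0.69, 95% interval -4.88 to -1.78), with a limma p of 0.902 after adjustment over all probes. Its groups did not overlap either. Without pool 3 the difference was -2.19, and the limma adjusted p over all probes was 0.0195, past the threshold. Over the same probes and samples, the adjusted p of the Saa2 probe was 0.0369. The Saa1 probe was well above background in floxed tumour 1 and in all 3 pools only, so the floxed level of 4 tumours is a background reading. It passed the filter of 3 arrays only through the pools, and its floxed spread is largely that of background readings. Its p-values are therefore given as a description only. On each of the 8 arrays the ratios of the Saa1 probe A_51_P361650 and of the Saa2 probe lay within 0.14 log2 units of each other. Whether these probes read separate transcripts was not tested.

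The brightest Saa1 probe, A_52_P318673, showed a smaller step between the groups. Its log2 ratio was -1.46, -1.58, -1.74, -1.95 and -1.82 in floxed tumours and -1.30, -0.95 and 3.39 in the pools. The groups did not overlap, but pool 1 stood only 0.16 above the highest floxed tumour, and pool 3 stood 4.35 above the next array. The means were -1.71 ± 0.19 (SD, n = 5) and 0.38 ± 2.62 (SD, n = 3). The difference was -2.09 (SE 0.91, 95% interval -4.16 to -0.02), with a limma adjusted p of 0.94 and an exact permutation p of 0.0179. Without pool 3 it was -0.58, with a limma adjusted p of 1. The probe was well above background on all 8 arrays, with a tumour signal of 1536 to 2424 in floxed tumours. The Saa1 probe A_51_P361650 read 95 to 130 in the same tumours, so the 2 probes disagree on the floxed level of Saa1. Which transcripts the brighter probe reads was not tested. The mean of the 2 Saa1 probes gave a Saa1 difference of -2.71.

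Saa3 was high in pool 3 and similar in the other 7 arrays. Its log2 ratio was -2.84, -2.84, -3.08, -3.26 and -3.18 in floxed tumours and -2.96, -3.10 and -1.10 in the pools. Pools 1 and 2 lay inside the floxed range and pool 3 stood 1.73 above the next array, so the groups overlapped. The means were -3.04 ± 0.19 (SD, n = 5) and -2.39 ± 1.11 (SD, n = 3), and the difference was -0.65 (SE 0.41, 95% interval -1.58 to 0.28). Neither limma (adjusted p = 0.94) nor the exact permutation test (p = 0.196) passed the threshold. Without pool 3 the difference was -0.01. The reference signal of Saa3 was 36789 to 48812 scanner units on the 8 arrays, and its tumour signal was 3942 to 6747 in floxed tumours.

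Saa4 was not well above background on any of the 8 arrays with either probe. The tumour signals of both Saa4 probes lay between 59 and 96 scanner units in all samples. No fold was computed and neither probe was tested.

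**Figure D1:**
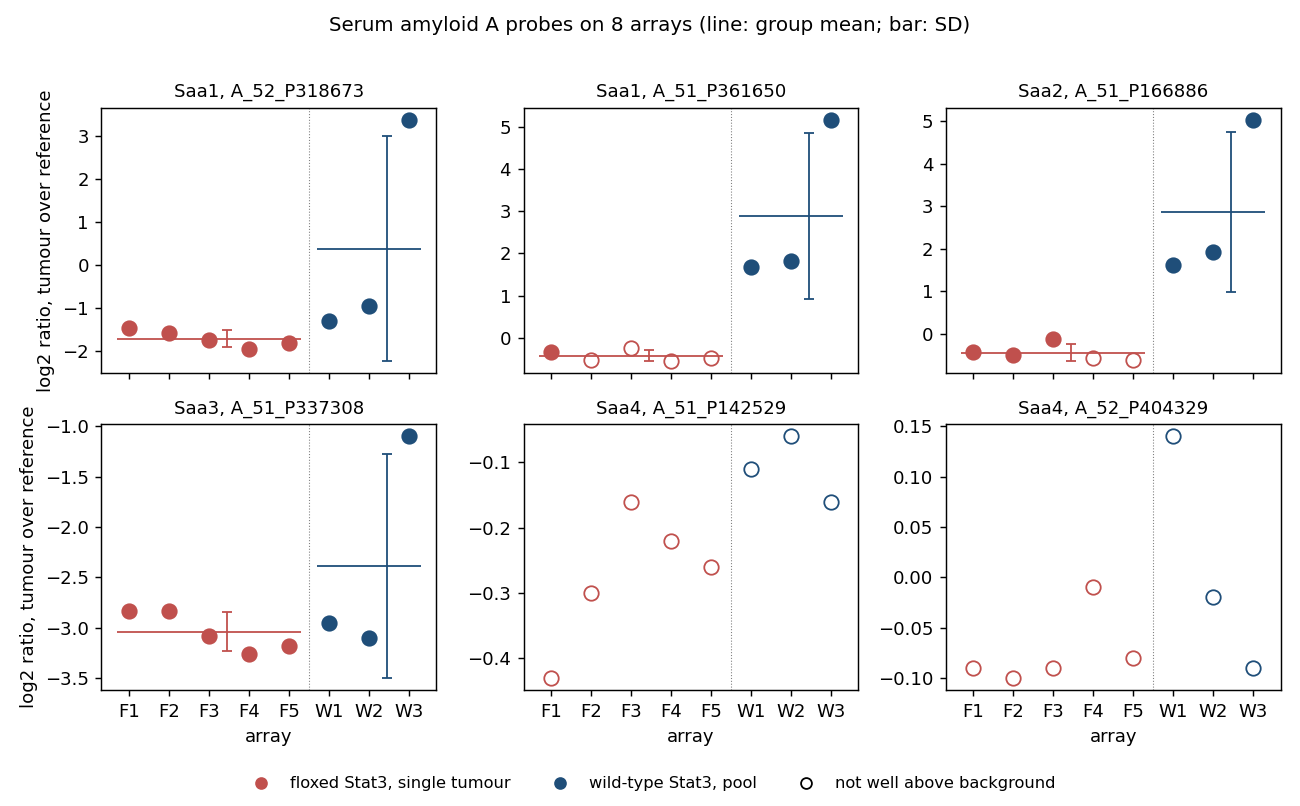
Log2 ratio of tumour over reference for the 6 serum amyloid A probes in 5 floxed tumours (F1 to F5) and 3 wild-type pools (W1 to W3), 1 panel a probe with its own axis; lines are group means, bars are SD, and open circles are spots not well above background. Saa2 and the Saa1 probe A_51_P361650 separate the groups, Saa3 stands out in pool 3 only, and both Saa4 probes are open on every array.

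Of the 3 family genes tested, none passed the adjusted threshold in limma, where 1 of 21556 genes did (0.00464%) and 1075 had an unadjusted p under 0.05. Over probes, limma called 0 of 31302 (0%), with 1507 at an unadjusted p under 0.05. Saa1 and Saa2 had an unadjusted limma p under 0.05 in the lower direction, as did 3.36% of all genes tested, and 1.62% did so in the higher direction. Saa1 and Saa2 were also lower in floxed tumours without overlap of the groups, as were 2.15% of the 21452 genes with a value on every array. The median difference over all genes was -0.01.

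Wild-type pool 3 held the highest value of Saa1, Saa2 and Saa3. It stood at least 1 log2 unit above each other array for all 3, as it did for 1.31% of genes, and it was the highest array for 24.5% of genes. By the size of that gap, Saa1 ranked 3 of 21452 genes, Saa2 ranked 13 and Saa3 ranked 83. The gap was 4.35 for Saa1 and 1.73 for Saa3.

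The reference RNA is the same on every array, but its signal was not the same for these probes on the array of pool 3. For the Saa2 probe the reference channel read 1853 on that array against 185 to 243 on the other 7, and for the Saa1 probe A_51_P361650 it read 1504 against 143 to 194. For the brightest Saa1 probe it read 5193 against 5277 to 6795, and for Saa3 36789 against 39506 to 48812. The rise is 9.48-fold for Saa2 and makes its log2 ratio in pool 3 smaller than its tumour channel alone would give. Among 13 other probes on the same array with a tumour signal of 50000 or more and a median reference signal under 500 on the other arrays, the reference channel was at 1 times that median in the middle probe and reached 8.9 times in 1. On the array of floxed tumour 2, 7 of 20 such probes exceeded 5 times their median. The cause of the higher reference readings was not tested.

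**Figure D2:**
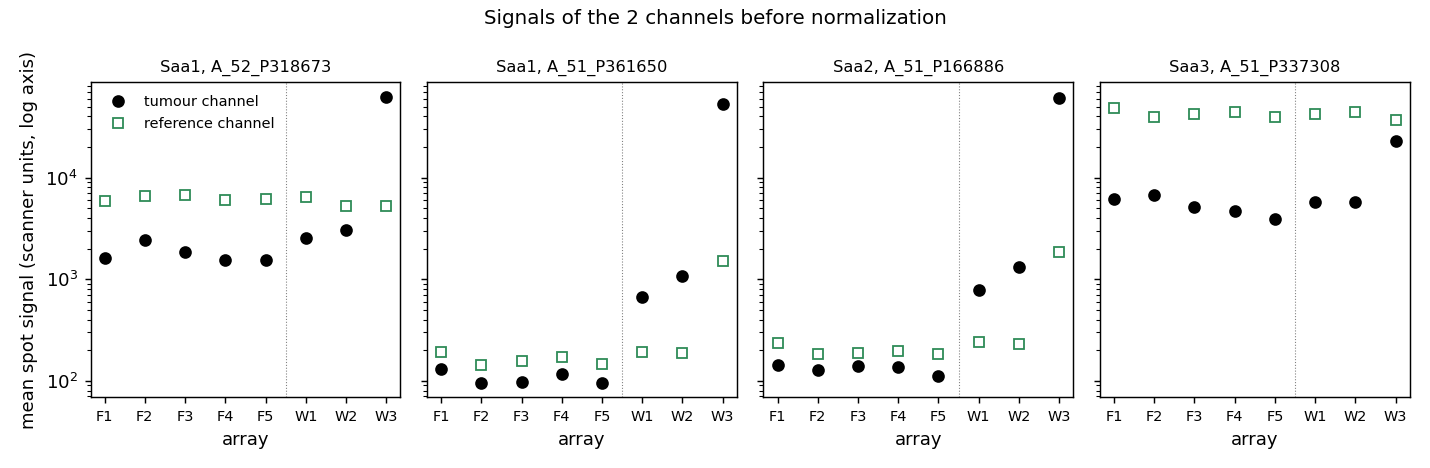
Mean spot signal of the tumour and the reference channel, in scanner units on a log axis, for 4 serum amyloid A probes on each array before normalization. The reference signal rises with the tumour signal for Saa2 and for the Saa1 probe A_51_P361650 in pool 3, at 1853 and 1504, and stays level for the other 2 probes.

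The arrays lay on 3 slides, each with floxed and wild-type samples, and the direction of Saa1 and Saa2 was the same within each. Since the groups of these genes did not overlap, that direction was fixed in advance for every slide. The Saa2 difference was -2.20 on the slide of pool 1, -2.37 on that of pool 2 and -5.35 on that of pool 3. For Saa1 the same slides gave -0.59, -0.51 and -5.05. For Saa3 they gave -0.26, 0.26 and -1.86, so its direction turned on the slide of pool 2. These slide values have no test. With the slide as a fixed block in limma, the Saa2 difference was -3.39 and its adjusted p was 0.513.

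**Figure D3:**
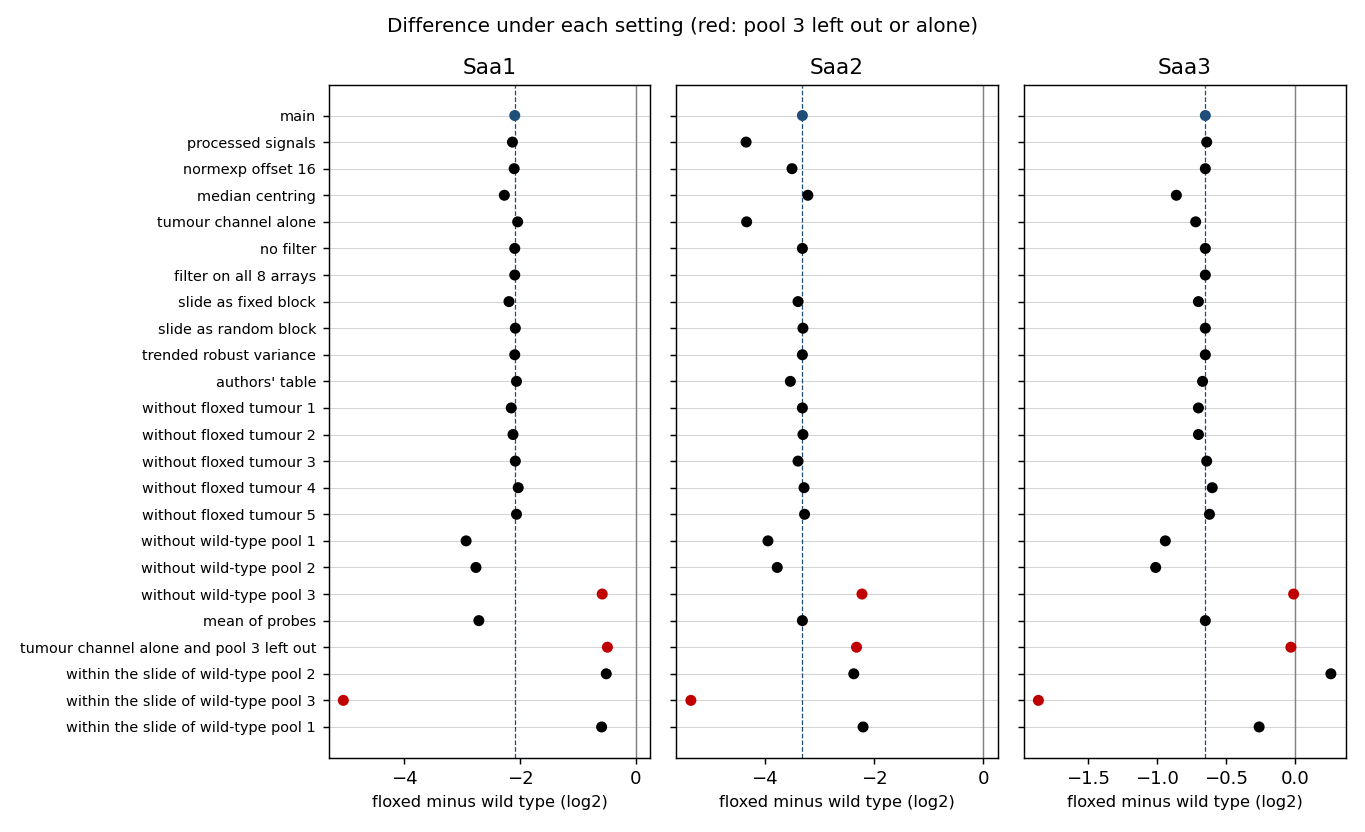
Floxed minus wild-type difference in log2 units for Saa1, Saa2 and Saa3 under each way of processing the data or leaving samples out; the dashed line is the reported value, and red points leave pool 3 out or rest on its slide. Saa2 stays between -5.35 and -2.20, and Saa1 and Saa3 move toward 0 when pool 3 is left out, to -0.58 and -0.01.

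Across the 8 arrays, Saa1 (its brightest probe) and Saa3 had a Pearson r of 0.976 (exact permutation p = 0.0244) and a Spearman rho of 0.69 (exact permutation p = 0.0694). This was the only pair of genes tested. Saa2 was left out because its values fall into 2 clusters by group, though the groups of Saa1 did not overlap either. Without pools 2 and 3, the arrays farthest from the median of Saa1, r was 0.809 over 6 arrays. Without pool 3 alone it was 0.389 (exact permutation p = 0.39), so the relation over all arrays rests on that pool.

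The genes whose ratios were most like a member's are given as a description, from 19007 candidates over the same 8 arrays. For Saa2 they were Kcnu1 (Pearson r 0.995), Btd (0.988), Card14 (0.986), Pde7a (0.98) and Osmr (0.971), the oncostatin M receptor. For Saa1 they were Nrcam (0.992), Wfdc3 (0.988), Gfra3 (0.986), AK049961 (0.983) and Cel (0.983). For Saa3 they were Krt19 (0.997), Cel (0.995), Krt14 (0.994), Hapln3 (0.993) and Dnahc1 (0.993), of which Krt19 and Krt14 encode keratins of simple and of basal epithelium. Pool 3 held the highest value of every one of these genes, and the arrays share 1 reference RNA. Each gene listed for Saa2, and Nrcam and Wfdc3 of those listed for Saa1, also separated the groups without overlap. The r of these genes carries the group difference as well. Krt19 was at -0.34 in pool 3 and between -3.92 and -3.07 elsewhere. The 2 tested probes of Wfdc3 disagreed in the sign of their difference, as did those of Dnahc1.

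The 4 family genes lie side by side on chromosome 7, and 25 other gene names have a probe within 500 kb of them. Of the 18 that could be tested, 7 were lower and 11 higher in floxed tumours, none had an unadjusted limma p under 0.05, and their differences ran from -0.45 to 0.41. Tmem86a had the smallest p of these, with a difference of 0.41 (SE 0.18, limma adjusted p = 0.94), followed by ENSMUST00000006776 at 0.20 and LOC384622 at 0.24. Saal1, named for its likeness to the family, had a difference of -0.09. An unnamed transcript between Saa4 and Saa1, ENSMUST00000094405, had a difference of -0.10 and was well above background on 3 arrays.

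**Figure D4:**
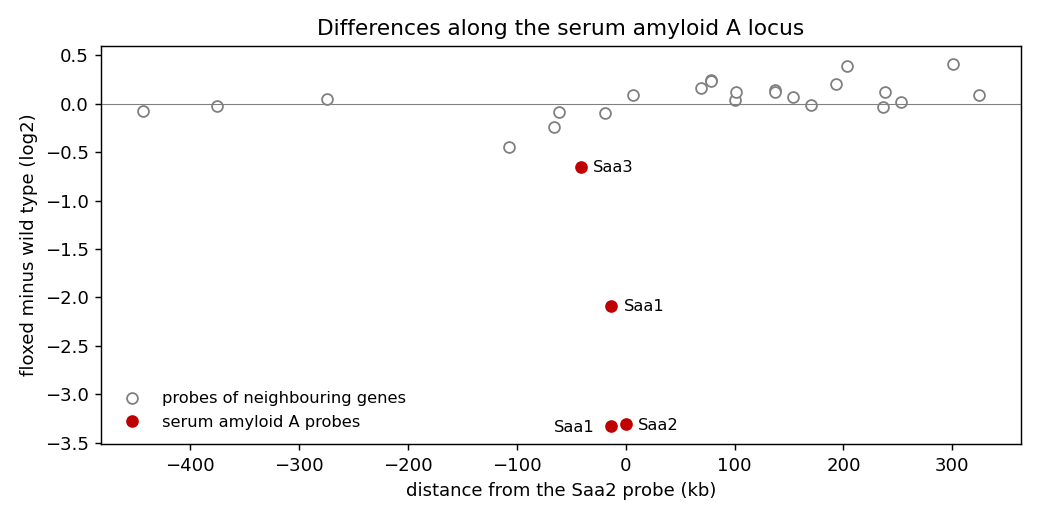
Floxed minus wild-type difference in log2 units for tested probes by their distance in kb from the Saa2 probe; filled points are serum amyloid A probes. The gene differences of the neighbours run from -0.45 to 0.41, above the 4 serum amyloid A probes at -0.65 to -3.33.

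Promoters of the inducible members were read for motifs of C/EBP and STAT factors, since a Saa1 probe and the Saa2 probe followed each other across the arrays. The 250 bases before the start are from RefSeq on GRCm38.p6, with matches in capitals.
Saa1, chr7:46742981-46743230, minus strand: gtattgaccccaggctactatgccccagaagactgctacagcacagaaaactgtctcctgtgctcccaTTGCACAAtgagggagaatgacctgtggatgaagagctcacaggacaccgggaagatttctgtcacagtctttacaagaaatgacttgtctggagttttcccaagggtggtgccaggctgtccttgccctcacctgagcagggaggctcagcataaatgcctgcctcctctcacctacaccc
Saa2, chr7:46751583-46751832, plus strand: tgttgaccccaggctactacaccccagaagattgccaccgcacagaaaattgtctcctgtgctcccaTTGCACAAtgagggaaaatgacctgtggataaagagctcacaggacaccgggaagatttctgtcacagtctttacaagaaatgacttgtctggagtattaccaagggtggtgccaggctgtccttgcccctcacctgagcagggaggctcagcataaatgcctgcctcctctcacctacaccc
Saa3, chr7:46715677-46715926, minus strand: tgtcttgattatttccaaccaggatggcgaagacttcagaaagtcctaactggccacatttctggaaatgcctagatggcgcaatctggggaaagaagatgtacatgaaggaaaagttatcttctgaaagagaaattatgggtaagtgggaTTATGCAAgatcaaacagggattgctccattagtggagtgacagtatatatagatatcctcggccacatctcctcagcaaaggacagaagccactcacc
The Saa1 and Saa2 promoters were identical at 238 of 251 aligned positions (94.8%), against 48.5% for Saa1 and Saa3. A C/EBP motif, TTGCNNAA on either strand, matched at 1 place in each of Saa1, Saa2 and Saa3 and at 2 in Saa4, and 9.56% of 32851 promoters of that length hold it. The STAT motif TTCNNNGAA, which 7.02% of promoters hold, matched in none of the 4 family promoters. The motifs do not overlap in these windows and were chosen with the sequences in view.

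Stat3, the floxed gene, had log2 ratios of -1.32, -1.33, -1.48, -1.22 and -1.12 in floxed tumours and 0.12, 0.86 and 1.27 in the pools. Its difference was -2.05 (SE 0.24, limma adjusted p = 0.109), and the groups did not overlap. Its 2 tested probes ran from -2.05 to -0.60.

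Of the signals that induce the family and their receptors, 17 of 19 listed genes were tested. Their median difference was 0.01 against -0.01 for all genes. At an unadjusted limma p under 0.05, 1 was lower and none higher, beside 3.36% and 1.62% of all genes. That gene was Osmr, which had log2 ratios of -2.18, -2.31, -1.81, -2.78 and -2.09 in floxed tumours and -1.35, -1.03 and 0.38 in the pools. Its difference was -1.57 (SE 0.38, limma adjusted p = 0.94). Its groups did not overlap, as in 2.15% of genes with a value on every array, in the lower direction. Tnfrsf1a, a receptor of tumour necrosis factor, had a difference of -0.44, and Il11, a cytokine of the interleukin-6 family, one of 0.19. The cytokine genes that induce the family did not pass either threshold, with Il6 at 0.35, Il1b at -0.11 and Tnf at 0.11.

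The 25 transcription factors and feedback genes were all tested, with a median difference of -0.03. Of these, 3 were lower at an unadjusted limma p under 0.05, beside 3.36% of all genes. Cebpd, a C/EBP factor of the acute phase response, had log2 ratios of -3.66, -3.06, -3.86, -3.40 and -3.36 in floxed tumours and -1.88, -1.28 and -0.34 in the pools. Its difference was -2.30 (SE 0.33, limma adjusted p = 0.192), and the groups did not overlap. Bcl3, a coregulator of NF-kB, had a difference of -1.30 (limma adjusted p = 0.94), also without overlap. Of genes with a value on every array, 2.15% were lower in floxed tumours without overlap. Stat3, the floxed gene, was the third. Cebpb was at -0.08, Rela at 0.06 and the feedback inhibitor Socs3 at -0.17.

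Other acute phase proteins were read from a list of 37 genes. Of these 29 were tested, 21 were lower and 8 higher in floxed tumours, and the median difference was -0.22. At an unadjusted limma p under 0.05, 6 of the 29 were lower and none higher, beside 3.36% and 1.62% of all genes. Pool 3 was the highest array for 15 of the 29, beside 24.5% of all genes. Without pool 3, 1 was lower and 1 higher, and the median was -0.02. Lrg1, a leucine-rich glycoprotein of plasma, had log2 ratios of 2.99, 2.23, 0.49, -0.27 and 0.01 in floxed tumours and 3.58, 3.92 and 5.19 in the pools. Its difference was -3.14 (SE 0.77, limma adjusted p = 0.94). Fgg, the fibrinogen gamma chain, had a difference of -2.72 (limma adjusted p = 0.94) and reached 6.68 in pool 3. Its groups overlapped, it was well above background on 6 arrays, and without pool 3 its difference was -1.47. Orm2, an orosomucoid, had a difference of -0.50. Lcn2 and Hp, which encode lipocalin 2 and haptoglobin, had differences of 0.38 and -0.54.

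Receptors and lipoprotein partners of serum amyloid A carry its signal or share its particle. The list read for them also holds matrix metalloproteinases, cathepsins and Cst3, which are neither. Of 29 listed genes 23 were tested, with 12 lower, 11 higher, a median of -0.03 and none at an unadjusted limma p under 0.05. The smallest p-values were those of Ctsl, a cathepsin, at -0.41, Tlr4 at -0.58 and Scarb1, a lipoprotein receptor, at 0.33.

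**Figure D5:**
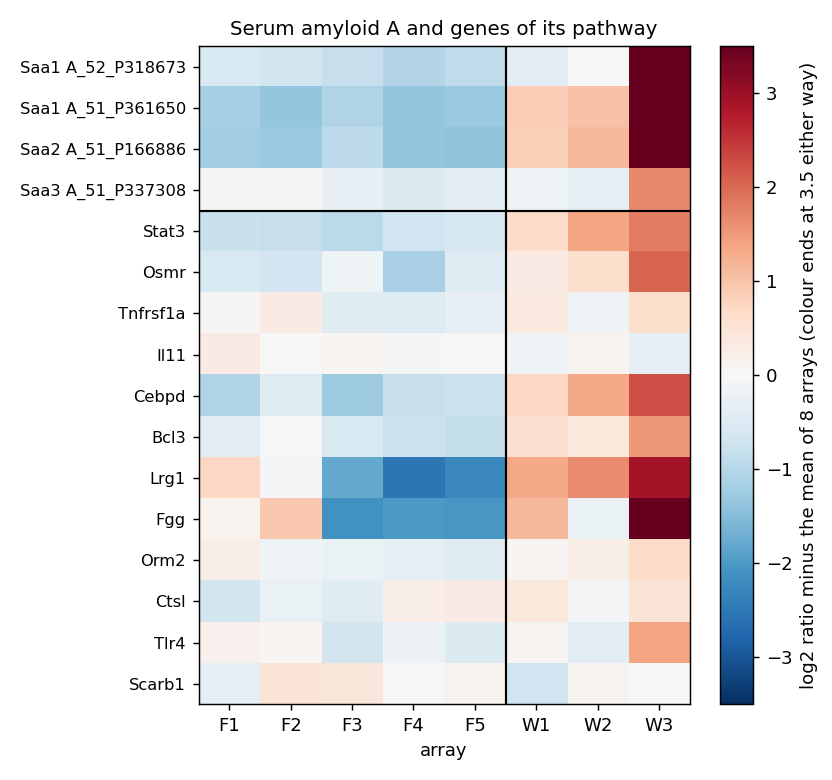
Log2 ratio of tumour over reference minus its mean over the 8 arrays, on a colour scale, for 4 serum amyloid A probes, Stat3 and the 3 genes of smallest p in each pathway list. Stat3, Cebpd, Bcl3 and Osmr are low in all 5 floxed tumours, with differences from -2.30 to -1.30, and pool 3 is the strongest column for Saa1, Saa2 and Saa3.

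Markers of other cell types were read beside the family, since fewer cells of a type and less RNA per cell cannot be told apart in bulk tumours. All 10 luminal epithelial markers found on the array, Krt8, Krt18 and Epcam among them, were well above background on all 8 arrays, and their summed level, a sum of quantile-normalized tumour signals, was 670454 to 727570 in floxed tumours and 675559 to 762261 in pools. Of 9 hepatocyte markers, Ttr and Cps1 were well above background on no array. In pool 3, where Saa1 and Saa2 were highest, Alb, Ttr, Apob, Cyp2e1 and Cps1 were not well above background. The other 4, Tat, Apoh, Serpinc1 and Fgb, were well above background there. All 4 had lower means in floxed tumours, Serpinc1 at -0.03, with a median difference of -0.50 and none at an unadjusted limma p under 0.05. Pool 3 was the highest array for 3 of them, with Fgb at 2.28, Tat at 1.49 and Apoh at 0.73. Without pool 3 the median difference of the 4 was -0.15, and that of Serpinc1 turned to 0.11. Apoh was well above background on 5 arrays and Fgb, also on the acute phase list, on 4. The summed hepatocyte marker level was 2022 to 2770 in floxed tumours and 2626 to 3457 in pools. The 9 macrophage markers summed to 100414 to 196142 in floxed tumours and 136660 to 208252 in pools. The 10 neutrophil markers summed to 2387 to 10142 and 3134 to 7293, with Elane and Camp well above background on no array. The 8 adipocyte markers summed to 18330 to 80765 and 23873 to 49417, with pool 3 the lowest pool. Pool 3 had the highest sum of all 8 arrays for the luminal, hepatocyte and macrophage lists, and the highest of the pools for the neutrophil, fibroblast and endothelial lists.

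Of the 6 basal epithelial markers, 5 were highest in pool 3, with Krt14 at 0.40 there and -2.02 to -1.48 elsewhere and Trp63 at 2.06 there. Their sum was 102849 to 117319 in floxed tumours and 67498 to 103397 in pools, where pool 3 was lowest and Acta2 read -0.97. The 6 fibroblast markers summed to 153095 to 383873 and 164164 to 211222, and the 6 endothelial markers to 20602 to 34979 and 21664 to 29104. The part of these cells in the serum amyloid A differences was not tested.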

How the data were processed

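The deposited spot intensity values came from Agilent Feature Extraction 9.5.3.1, without normalization, per the file headers, which name build mm7 and array design 014868. A value table deposited by the authors gives log2 values of unstated normalization and centring. Its columns followed the log2 ratios computed here (r from 0.989 to 0.994, slope from 0.973 to 1.25), with medians from 0.00452 to 0.0129, and it was tried as another setting.

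In limma 3.58.1 (R 4.3.3), normexp with an offset of 50 corrected the background and loess within arrays normalized the ratios, leaving out outlier spots. Spots of a probe were averaged. Probes well above background in the tumour channel on at least 3 of 8 arrays were kept, and the brightest stood for a gene. Groups were compared with limma, by two-sided tests, and p-values were adjusted over all genes or all probes by Benjamini-Hochberg. The model was tested on simulated data. Between 71.7% and 77.3% of probes were well above background per array, and the number of arrays limits the precision. Symbols came from the accession for 22951 probes, from an identical symbol for 6659 and from the files for 11564. The genes named are the members, Stat3, the 3 smallest p of each list and of the neighbours, and the 5 most similar genes of each member well above background on at least 6 arrays. Members and lists were chosen with earlier results of these data known. Alternatives were other background corrections, normalizations, filters, probe rules, variance models, slide blocks, leaving out single samples and the authors' table. One was added after seeing the data, the tumour channel alone without pool 3. The transcription factor list's count in the higher direction is not reported here.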

Additional observations from a re-analysis of the deposited data

How the results depend on the processing

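No paired analysis was possible because the floxed tumours carry no replicate number that pairs them with a pool; the slides, each holding both groups, served as the block instead (Saa2 -3.39, limma adjusted p 0.513). Saa1 and Saa2 kept their direction under every alternative run, from -5.05 to -0.49 and from -5.35 to -2.20. For single samples left out and within single slides that direction was fixed in advance, since the groups did not overlap. With limma p-values adjusted over all genes, neither gene passed the threshold under any alternative (from 0.5 to 1 and from 0.0526 to 1). Adjusted over all probes, the limma p of the Saa2 probe was 0.0369 without pool 3, past the threshold. In the tumour channel alone without pool 3 it was 0.0351. Leaving out 1 sample gave -2.93 to -0.58 for Saa1, -3.94 to -2.22 for Saa2 and -1.01 to -0.01 for Saa3. Saa3 reversed to 0.26 within the slide of pool 2, and the cause was not tested. The tumour channel alone gave -4.33 for Saa2 and -2.04 for Saa1, and without pool 3, an alternative chosen after seeing the data, -2.32 and -0.49. Scanner-processed signals gave -4.34 for Saa2 and the authors' deposited table -3.53. Without pool 3, Krt19 reversed to 0.06 (0.05 in the tumour channel alone) and Dnahc1 to 0.05; leaving out single samples gave -1.65 to 0.06 and -0.45 to 0.05. The count of genes past the adjusted threshold was 1 and ran from 0 to 2 over the alternatives. At an unadjusted p under 0.05 it was 1075, and it was 624 with median centring, 1898 without pool 2, 475 without pool 3 and 518 in the tumour channel alone without pool 3. The median of the acute phase list was -0.44 with processed signals. A filter on all 8 arrays leaves no value for Saa2 or for the Saa1 probe A_51_P361650. Signal over background limits Saa4, and the floxed level of Saa2 and of the Saa1 probe A_51_P361650.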
